A study of Mus musculus with 6 samples.

Results

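Cortical inhibitory interneurons are the local GABA-releasing neurons of the cerebral cortex, and 10 genes that mark them were followed here: Gad1, Gad2, Slc32a1, Pvalb, Sst, Vip, Lhx6, Calb2, Reln and Lamp5. They are identified by symbol, a rule that uses none of their levels, and are 10 of the 55421 genes in the deposited tables. All 10 passed the filter on low counts. RNA-seq was performed on whole cortex from wild-type male C57BL/6J mice, 3 of 6 months (mice 10, 11 and 17) and 3 of 24 months (mice 2, 4 and 5), 1 library per mouse. All mice were anesthetized with isoflurane before death, and the labels name no other treatment. The cortex was powdered whole, so each value averages over all its cells and layers, and the comparison holds for males of 1 strain.

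Interneurons make GABA from glutamate with the 2 glutamate decarboxylases, load it into synaptic vesicles and release it onto excitatory neurons and onto each other. They fall into classes that differ in their targets and firing: fast-spiking Pvalb cells contact the soma and axon initial segment, Sst cells contact dendrites, Vip cells mainly inhibit other interneurons, and Lamp5 or Reln cells release GABA more diffusely in the superficial layers. Pvalb and Sst cells come from the medial ganglionic eminence of the embryo and keep the transcription factor Lhx6, while most Vip and Lamp5 cells come from the caudal ganglionic eminence. Because the tissue was bulk cortex, fewer cells of a class and less RNA per cell cannot be told apart in any value below.

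None of the 10 genes differed between the ages past the test. In edgeR's quasi-likelihood test, 0 of 10 were called at the 1% false discovery rate (FDR) used for this dataset, where 0.0% of the 32905 genes tested were called. At a 10% FDR 0 of 10 were called, beside 18.4% of all genes tested, and 0 of 10 had an unadjusted p under 0.05, beside 30.7%. The likelihood ratio test, the exact test of edgeR and the Wald test of DESeq2 also called 0 of 10 at each of these thresholds. Of all genes, they called 5.18%, 3.41% and 0.836% at a 1% FDR and 22.8%, 18.8% and 11.2% at 10%, and 30.8%, 28.3% and 21.9% had an unadjusted p under 0.05. The smallest adjusted p of a member was 0.178 (Sst, quasi-likelihood test, Benjamini-Hochberg adjustment over all genes). What the libraries did show was a wide spread among the 24-month-old mice for Pvalb and Gad1, and among mice of both ages for Calb2.

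The libraries held 29495379 to 36494240 counts, and the members were counted 460 to 15913 times per library. Counting error alone was 0.842% to 4.38% of the mean count, which for Reln was 3.26% beside an observed coefficient of variation of 4.25% at 6 months. The 24-month-old libraries detected more genes (40208 to 43561) than the 6-month-old ones (33974 to 35651). With edgeR's trimmed mean of M-values (TMM), which scales libraries on most genes being unchanged, log2 fold changes (24 against 6 months) had a median of 0.15 for all tested genes but -0.14 for the 15761 genes averaging at least 1 CPM, the count scaled to a common library size. Member fold changes below are read beside that second value. The excitatory marker Slc17a7, a vesicular glutamate transporter, lay at 222, 206 and 246 CPM at 6 months and 217, 209 and 222 CPM at 24 months (adjusted p = 0.703).

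The start regions of 4 members are shown because they place the genes described below. These are the glutamate decarboxylase pair, and the neuropeptide genes Sst and Vip, which are textbook targets of cyclic AMP signaling. The full cyclic AMP response element is TGACGTCA, and TGACG is its shorter form. Each sequence is the 250 bases before the RefSeq start (GRCm38.p6), read 5′ to 3′ on the strand of the gene, and capitals mark TGACG on either strand, including the full TGACGTCA. The RefSeq start is not always the GENCODE start used for the gene positions below. The Gad1 window lies inside the GENCODE span of Gad1, and the Gad2 and Sst windows overlap theirs. The Vip window lies just before its GENCODE span.
Gad1, chr2:70561879-70562128, plus strand: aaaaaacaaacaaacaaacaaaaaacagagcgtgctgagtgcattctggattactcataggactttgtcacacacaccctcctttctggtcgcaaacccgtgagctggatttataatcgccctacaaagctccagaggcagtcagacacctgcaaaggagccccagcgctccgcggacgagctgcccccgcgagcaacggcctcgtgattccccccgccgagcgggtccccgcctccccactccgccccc
Gad2, chr2:22622077-22622326, plus strand: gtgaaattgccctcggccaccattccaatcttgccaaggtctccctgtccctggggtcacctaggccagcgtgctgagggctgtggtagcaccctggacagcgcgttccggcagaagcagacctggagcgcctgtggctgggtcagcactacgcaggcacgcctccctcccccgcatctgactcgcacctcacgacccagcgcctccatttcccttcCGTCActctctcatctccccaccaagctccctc
Sst, chr16:23890845-23891094, minus strand: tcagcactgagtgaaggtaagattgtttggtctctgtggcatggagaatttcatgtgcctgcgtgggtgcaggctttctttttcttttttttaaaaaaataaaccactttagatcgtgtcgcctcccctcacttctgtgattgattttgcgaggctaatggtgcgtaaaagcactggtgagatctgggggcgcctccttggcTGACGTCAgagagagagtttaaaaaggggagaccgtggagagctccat
Vip, chr10:5638968-5639217, plus strand: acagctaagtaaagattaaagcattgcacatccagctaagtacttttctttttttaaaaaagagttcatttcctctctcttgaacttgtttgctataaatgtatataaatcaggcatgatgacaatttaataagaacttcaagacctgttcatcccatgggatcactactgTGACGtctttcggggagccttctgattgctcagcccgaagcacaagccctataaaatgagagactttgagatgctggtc

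A window was held for 9 of the 10 members, and the full element was found in 1 of them, Sst, where it begins 48 bases before the RefSeq start. It occurs in 1.55% of all 32851 windows of this length. The shorter TGACG was found in 3 of the 9, in Gad2 (33 bases before the RefSeq start), Sst and Vip (79 bases), beside 17.8% of all windows. By the GENCODE positions the Gad2 and Sst matches lie inside the gene. The full element is its own reverse complement, so it holds the shorter one on both strands. Matched on either strand, TATAAA was found in Gad1 and Vip (12.4% of all windows), and GGGCGG in Gad1, Lhx6 and Reln (32.7%). In Gad1 both matches lie on the strand opposite to the gene. These are matches of letters only. No member was called between the ages, whether its window held the element or not.

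Levels between genes were compared per length, in the deposited TPM, a length-corrected share of a library's transcripts. Sst was the highest member with a mean of 762 TPM over the 6 libraries (rank 140 of all genes), and Reln the lowest with 4.42 TPM, a 172-fold range. Between them stood Lamp5 (317 TPM), Gad1 (184 TPM), Pvalb (161 TPM), Calb2 (72.5 TPM), Gad2 (65.3 TPM), Vip (46.5 TPM), Slc32a1 (30.9 TPM) and Lhx6 (12.2 TPM). The ranges over the 6 libraries overlapped between Gad1 and Pvalb, Pvalb and Calb2, Calb2 and Gad2, and Gad2 and Vip, so these neighbors were not separated. The other neighbors in this order did not overlap. TPM divides by transcript length: Gad1 had more counts than Sst in every library, although the TPM of Sst was higher.

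**Figure D1:**
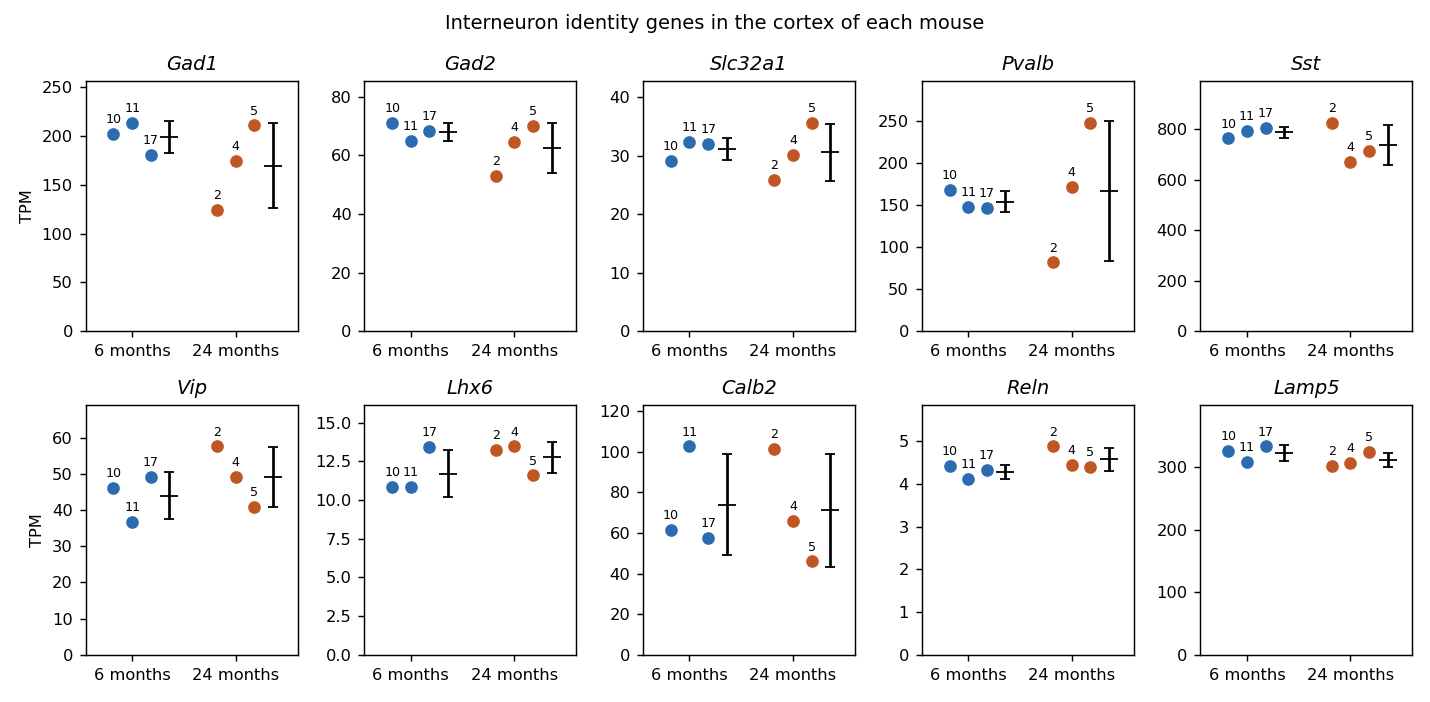
Deposited TPM (vertical axis, from 0) of each interneuron gene in every library, with the 6-month-old mice in blue, the 24-month-old mice in orange and mouse numbers beside the points; the bars give the mean ± SD of 3 mice. The ages overlapped for all 10 genes, and Pvalb at 24 months ran from 81.9 TPM in mouse 2 to 248 TPM in mouse 5.

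The genes of GABA synthesis and packaging came first. Gad1 (ENSMUSG00000070880.10, chr2:70553072-70602014, plus strand) encodes GAD67, the decarboxylase that makes most GABA in the cell body. It was at 202, 214 and 181 TPM in 6-month-old mice 10, 11 and 17 and at 124, 175 and 211 TPM in 24-month-old mice 2, 4 and 5. The ages overlapped, with mouse 2 lowest and mouse 5 close to the highest young mouse. On the TMM scale Gad1 had 431 ± 35.4 CPM at 6 months and 341 ± 87.8 CPM at 24 months (SD, n = 3 mice each), a log2 fold change of -0.34 with a standard error of 0.167, a 95% interval of -0.71 to 0.03 and an adjusted p of 0.194. This was the most negative fitted value of the 10.

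Gad2 (ENSMUSG00000026787.3, chr2:22622205-22693874, plus strand) encodes GAD65, the decarboxylase held at nerve terminals. It was at 71.2, 64.9 and 68.3 TPM in mice 10, 11 and 17 and at 53.1, 64.6 and 70.0 TPM in mice 2, 4 and 5. Mouse 2 was again lowest, while mice 4 and 5 were within or near the young range. With an adjusted p of 0.187, the fitted log2 difference was -0.24 ± 0.114 (standard error).

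Slc32a1 (ENSMUSG00000037771.11, chr2:158610767-158615748, plus strand) encodes the vesicular GABA transporter. Its TPM was 29.1, 32.4 and 32.0 in the young mice and 25.9, 30.2 and 35.6 in the old mice. The ages overlapped, and the highest and the lowest of the 6 libraries were both old. The fitted difference was -0.14 on the log2 scale (adjusted p = 0.486). An antisense gene, Gm14205, overlaps the exons of Slc32a1, and 23.1% of the 69-base windows of Slc32a1 also occur elsewhere in the annotated transcripts. Gm14205 had 0 counts in every library. Because the libraries do not mark strand, that does not show whether Gm14205 added to the Slc32a1 count.

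Without 24-month-old mouse 5, Gad1 and Gad2 were called at a 10% FDR, with log2 fold changes of -0.52 (adjusted p = 0.0526) and -0.32 (adjusted p = 0.0837). In that setting 7998 of all 31275 genes tested were called too. Without mouse 2, Gad1 and Gad2 were at -0.15 and -0.12. The old mice at the ends of the Gad1 range thus moved its fitted value by more than its standard error of 0.167. Neither gene was called under any other setting tried, and the fitted Gad1 value was negative in all of them, at -0.16 with library totals and -0.19 with TMM over genes of at least 1 CPM.

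**Figure D2:**
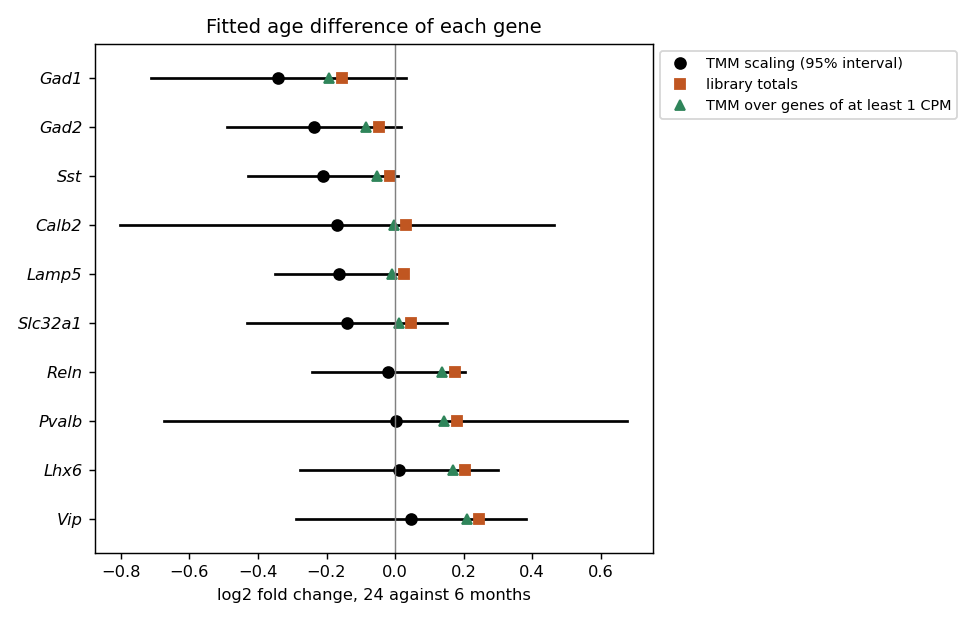
Fitted log2 fold change (horizontal axis, 24 against 6 months) of each gene, with black points and 95% intervals from the TMM scaling, orange squares from library totals and green triangles from TMM over genes of at least 1 CPM. Every interval holds 0, and Slc32a1, Calb2, Reln and Lamp5 lie below 0 with TMM but above 0 with library totals.

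Fast-spiking and dendrite-targeting classes were marked by Pvalb, Sst and Lhx6. Pvalb (ENSMUSG00000005716.16, chr15:78191114-78206400, minus strand) encodes parvalbumin, the calcium buffer of fast-spiking cells. It was at 169, 148 and 147 TPM in mice 10, 11 and 17 and at 81.9, 171.5 and 248 TPM in mice 2, 4 and 5. The 3 young mice lay close together, while the old mice held both the lowest and the highest value. By CPM the 2 age means were alike, 45.7 ± 3.90 and 45.8 ± 22.8 (SD, n = 3), and the log2 fold change was 0.00 with a 95% interval of -0.67 to 0.68 (adjusted p = 0.998). That interval spans folds of 0.627 to 1.6, so a difference within that range was not excluded by these mice.

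The old-mouse spread decided any direction for Pvalb. Its log2 fold change was 0.34 without mouse 2 and -0.39 without mouse 5. The coefficient of variation was 8.54% at 6 months and 49.8% at 24 months, and mouse 5 had 3.04 times the CPM of mouse 2. Of the 15761 genes with at least 1 CPM, 63 (0.4%) had a ratio of mouse 5 to mouse 2 at least that large, and the median ratio was 1.06, a comparison chosen after the values were seen. Syt2, the fast calcium sensor of Pvalb terminals and also singled out after its values were seen, was at 27.8, 24.3 and 20.1 CPM in mice 10, 11 and 17 and at 5.73, 23.9 and 43.6 CPM in mice 2, 4 and 5. Of the 10 other genes of the Pvalb class list, 7 were lowest in mouse 2 and 5 were highest in mouse 5, and Syt2, Erbb4 and Nek7 were both, as Pvalb was. The 10 genes had 0.738 to 7.60 times as much CPM in mouse 5 as in mouse 2, with a median of 1.5.

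Markers of other cells also differed between these mice. The summed CPM of 8 oligodendrocyte genes was 3024, 3831 and 2442 in the young mice and 1293, 3140 and 4169 in mice 2, 4 and 5, with all 8 genes detected and 0 called at a 10% FDR. The summed CPM of 7 endothelial genes was 247 to 267 at 6 months and 157, 252 and 298 in mice 2, 4 and 5. Of 13 excitatory genes, 10 were higher in mouse 5 than in mouse 2, at 0.647 to 2.87 times (median 1.11), and Slc17a7 was at 217 CPM in mouse 2 and 222 CPM in mouse 5. The part of tissue composition in the Pvalb spread was not tested.

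**Figure D3:**
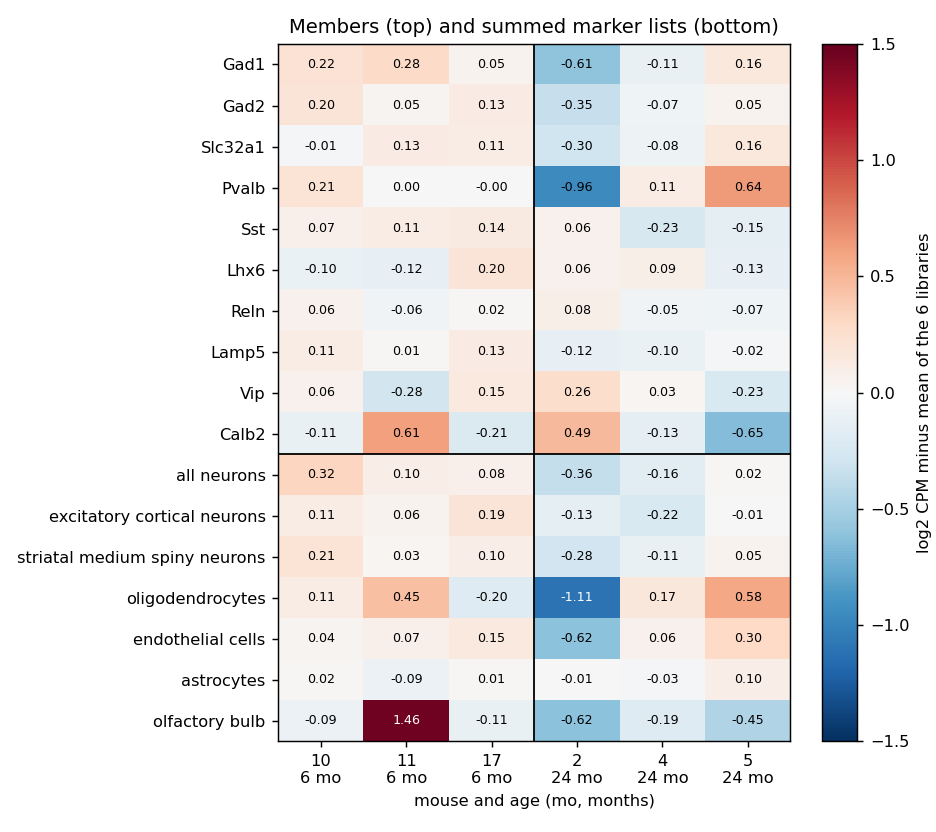
Each cell gives log2 CPM minus the mean of the 6 libraries, for the interneuron genes (above the line) and for summed marker lists of other cells (below it), by mouse and age. Pvalb was -0.96 in mouse 2 and 0.64 in mouse 5, where the oligodendrocyte sum was -1.11 and 0.58, and Calb2 was 0.61 in mouse 11, where the olfactory bulb sum was 1.46.

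Sst (ENSMUSG00000004366.4, chr16:23889573-23890958, minus strand) encodes somatostatin. It was at 763, 793 and 806.5 TPM in mice 10, 11 and 17 and at 826, 672 and 713 TPM in mice 2, 4 and 5. By TPM mouse 2 was the highest of all 6 and the ages overlapped. By TMM-scaled CPM the 3 old mice (156, 127 and 135 CPM) were just below the 3 young ones (158, 162 and 165 CPM), so the separation rested on the scaling. The fit gave -0.21 ± 0.098 (standard error) on the log2 scale with an adjusted p of 0.178, and -0.02 with library totals.

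Lhx6 (ENSMUSG00000026890.19, chr2:36081953-36105408, minus strand) encodes the LIM homeobox factor that directs and maintains the Pvalb and Sst classes. It was at 10.9, 10.8 and 13.4 TPM in the young mice and at 13.2, 13.5 and 11.6 TPM in the old mice. One young and 2 old mice shared the upper end, and the log2 fold change was 0.01 (95% interval -0.28 to 0.30, adjusted p = 0.966). Mouse 5 had 0.878 times the Lhx6 CPM of mouse 2, against 3.04 times for Pvalb and 0.864 times for Sst.

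The remaining classes were marked by Vip, Calb2, Lamp5 and Reln. Vip (ENSMUSG00000019772.5, chr10:5639218-5647617, plus strand) encodes vasoactive intestinal peptide. It was at 46.0, 36.8 and 49.1 TPM at 6 months and at 57.5, 49.1 and 40.8 TPM in old mice 2, 4 and 5. Mouse 2, lowest for Gad1 and Pvalb, was the highest for Vip, and the ages overlapped. The fitted log2 difference was 0.05, with a 95% interval of -0.29 to 0.38 (adjusted p = 0.854).

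Calb2 (ENSMUSG00000003657.9, chr8:110137502-110168210, minus strand) encodes calretinin, a calcium-binding protein of many Vip cells that is also abundant in olfactory bulb interneurons. It was at 61.6, 103 and 57.6 TPM in mice 10, 11 and 17 and at 101, 66.0 and 46.0 TPM in mice 2, 4 and 5. One mouse of each age stood high, mouse 11 and mouse 2. The log2 fold change was -0.17 (95% interval -0.80 to 0.46, adjusted p = 0.710), and it ran from -0.50 without mouse 2 to 0.17 without mouse 11.

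The olfactory bulb marker sum (Doc2g, Cdhr1, Eomes and Th) was high in mouse 11 only, at 20.4 CPM, beside 4.84 to 7.01 CPM in the other 5 libraries. Cdhr1, a photoreceptor-type cadherin of mitral and tufted cells, was at 8.43 CPM in mouse 11 and at 1.79 to 3.27 CPM elsewhere. Th, the dopamine-synthesis enzyme of bulb periglomerular cells, was at 7.97 CPM in mouse 11 and at 0.771 to 3.41 CPM elsewhere. In mouse 2, the other library high for Calb2, the sum was 4.84 CPM, the lowest of the 6. Whether olfactory tissue contributed to Calb2 in mouse 11 was not tested.

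Lamp5 (ENSMUSG00000027270.14, chr2:136052239-136069917, plus strand) encodes a membrane protein of the neurogliaform class that is also made by some excitatory cells. It was at 325, 309 and 333 TPM at 6 months and at 302.5, 307.5 and 324 TPM at 24 months. Its coefficient of variation was 4.22% at 6 months and 3.66% at 24 months, and with Lhx6 it was 1 of the 2 members that did not spread more at 24 months. By CPM the old mice (233, 237 and 250 CPM) were all below the young ones (273, 256 and 278 CPM), but by TPM the ages overlapped, and the log2 fold change of -0.16 (adjusted p = 0.209) became 0.03 with library totals.

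Reln (ENSMUSG00000042453.14, chr5:21884454-22344702, minus strand) encodes reelin, the secreted protein that guides cortical layering and in the adult comes from superficial interneurons. It was at 4.41, 4.11 and 4.32 TPM in the young mice and at 4.87, 4.44 and 4.39 TPM in the old mice. Its highest library had 1.11 times the CPM of its lowest, the narrowest range of the 10. The log2 fold change was -0.02 with a 95% interval of -0.24 to 0.20 (adjusted p = 0.911), or 0.845-fold to 1.15-fold, and it moved to 0.17 with library totals.

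Sst and Lamp5 were the 2 of 10 members whose CPM did not overlap between the ages, both lower at 24 months, beside 32.5% of all genes of at least 1 CPM that were lower in the same way and 5.32% that were higher. By TPM 0 of 10 did so, beside 17.3% lower and 10.0% higher. Fitted values were negative for 7 of 10 members (70.0% of genes of at least 1 CPM), with a median of -0.15. With library totals the members were 3 negative and 7 positive (median 0.04), and with TMM over genes of at least 1 CPM 5 and 5 (median 0.00). A common direction across the 10 genes was therefore not seen independently of the scaling. A larger coefficient of variation at 24 than at 6 months was found for 8 of 10 members, beside 58.1% of genes of at least 1 CPM.

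Ratios within a library do not depend on the scaling. Relative to Slc17a7, the count of Gad1 was 198%, 224% and 159% in mice 10, 11 and 17 and 114%, 168% and 190.5% in mice 2, 4 and 5. The old mice reached from below the young range into it. The mean log2 ratio differed by -0.32 between the ages (exact two-sided permutation test over 3 against 3 mice, p = 0.4, smallest possible p 0.1). That difference was -0.10 without mouse 2 and -0.47 without mouse 5. It was -0.12 with the sum of 6 excitatory genes as the reference and -0.05 with Snap25, a general neuronal gene. Relative to Slc17a7 the ages overlapped for all 10 members, beside 20.4% of genes of at least 1 CPM that did not overlap, and the other differences ran from -0.19 for Gad2 to 0.10 for Vip. With the sum of 6 excitatory genes, Lamp5 and Reln did not overlap, both higher at 24 months by 0.09 and 0.24 (exact permutation p = 0.1 each, the smallest possible). The share of all genes that do not overlap with that reference was not counted.

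Class genes were next set against Gad1. These are counts of whole cortex, so the ratios are not confined to GABA-making cells. The Sst count was 35.7%, 35.0% and 42.1% of that of Gad1 at 6 months and 62.9%, 36.3% and 31.9% in old mice 2, 4 and 5. The Pvalb count was 11.4%, 9.44% and 11.1% at 6 months and 9.01%, 13.4% and 16.1% in old mice 2, 4 and 5. Mouse 2 thus had the highest ratio for Sst and the lowest for Pvalb, and across the 9 genes it was highest for 8 and lowest for Pvalb. Gad1, the shared denominator, was itself lowest in mouse 2, at 248 CPM beside 351 to 461 CPM in the other libraries, which raises every ratio in that mouse.

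For Vip the ratio to Gad1 was 10.2%, 7.67% and 12.1% in the young mice and 20.7%, 12.5% and 8.63% in the old mice, a mean log2 difference of 0.42, which was 0.08 without mouse 2 and 0.71 without mouse 5. The ages overlapped for all 9, beside 14.3% of genes that did not, and the exact two-sided permutation p ranged from 0.2 to 0.8. With Gad2 as the reference the differences were smaller, at 0.03 for Sst, 0.05 for Calb2, 0.08 for Lamp5, 0.09 for Slc32a1, 0.11 for Pvalb, 0.22 for Reln, 0.26 for Lhx6 and 0.29 for Vip. The balance of Pvalb to Sst was 31.9%, 26.9% and 26.3% in the young mice and 14.3%, 36.9% and 50.3% in the old mice. The old mice enclosed the young range on both sides, as they did for Pvalb itself.

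**Figure D4:**
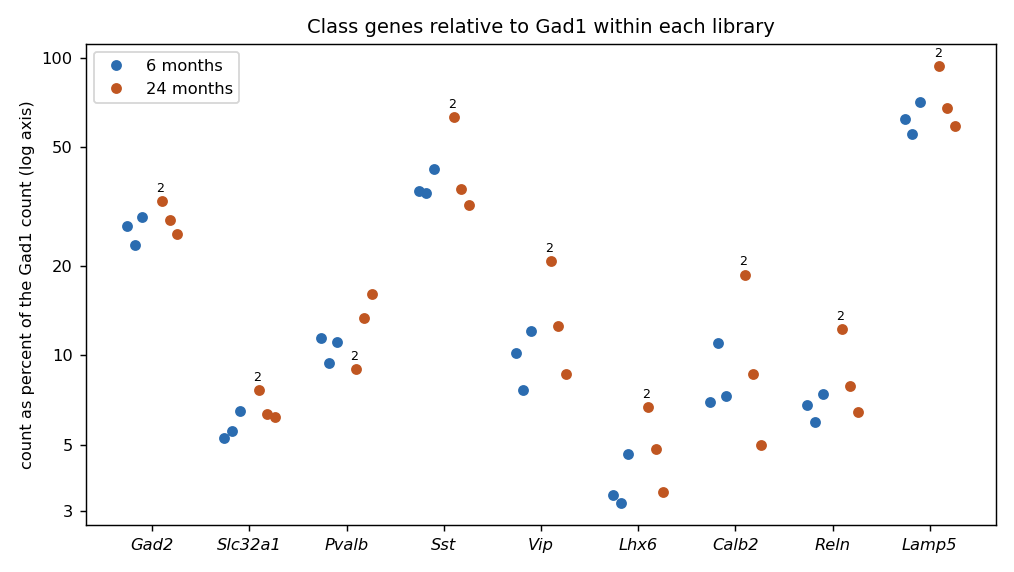
Count of each gene as percent of the Gad1 count in the same library (log axis), with 6-month-old mice in blue and 24-month-old mice in orange. Mouse 2 is labelled and lies highest for 8 of the 9 genes and lowest for Pvalb, at 9.01%.

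The genes whose log2 CPM profile over the 6 libraries, centered on its mean, lay nearest to Gad1 among 15760 genes were Ermp1, 2700049A03Rik, Cdh12, Uhrf1bp1l and Epb41l3, at root mean square distances of 0.0346 to 0.0381. For Pvalb they were Slc24a2, Cwh43, Tspan2, Gjc3 and Kcnab3, at larger distances of 0.102 to 0.119. The profiles have 6 points and share library size and composition, and the distance is a description only.

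Other genes of the interneuron pathways were described by 7 lists. Over these lists, 72 genes that are no members were tested. At a 1% FDR 0 were called, at 10% 6 were called, all lower at 24 months (8.33%, beside 17.3% lower among genes of at least 1 CPM), and the unadjusted p was under 0.05 for 12 lower and 1 higher. Of all genes tested, 30.7% had such a p in either direction, and 70.0% of genes of at least 1 CPM were fitted lower. Their median log2 fold change was -0.10, beside -0.14 over genes of at least 1 CPM.

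In the list of GABA synthesis, uptake and breakdown, 1 of 12 genes fell at a 10% FDR and none rose. It was Slc38a1, a glutamine transporter that feeds transmitter synthesis (168, 185 and 163 CPM against 117, 145 and 145 CPM, adjusted p = 0.0800). Pdxk, the kinase that makes the pyridoxal phosphate cofactor of the decarboxylases, had a log2 fold change of -0.18 (adjusted p = 0.168) and was not called. Of 18 interneuron transcription factors 0 were called at a 10% FDR, with 2 lower and 1 higher at an unadjusted p under 0.05. The higher one was Nkx2-1, an embryonic factor near the detection limit at 0 to 0.289 CPM. Zeb2, which directs the migration of interneurons, was at -0.31 (adjusted p = 0.134), and Dlx5, a factor of the embryonic ganglionic eminences, was at -0.45 (adjusted p = 0.159).

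In the Pvalb class list 1 of 11 genes fell at a 10% FDR, Tac1, the substance P precursor, at a log2 fold change of -0.36 (adjusted p = 0.0982). Ankrd34b, at -0.43, was not called (adjusted p = 0.113). In the Sst class list 2 of 12 fell. Grin3a, an NMDA receptor subunit of Sst cells, was at 44.0, 45.1 and 42.1 CPM in the young mice and 31.0, 30.9 and 31.9 CPM in the old mice. The ages did not overlap, at 43.7 ± 1.53 and 31.3 ± 0.574 CPM (SD, n = 3). The fitted log2 difference was -0.48 ± 0.092 (standard error), with an adjusted p of 0.0518 in the quasi-likelihood test. The other was Calb1, calbindin, found in some Sst cells but also in upper-layer excitatory neurons, at 489.5, 410.5 and 443 CPM against 407, 316 and 297 CPM (adjusted p = 0.0816).

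In the Vip class list 1 of 12 fell, Penk, the enkephalin precursor, at 70.5, 86.6 and 64.0 CPM against 42.8, 46.0 and 60.6 CPM (adjusted p = 0.0624). Penk is also abundant in striatal medium spiny neurons, whose marker sum was 181 to 205 CPM at 6 months and 146 to 184 CPM at 24 months, with Drd2 at no more than 0.348 CPM in any library. Cck, a peptide of some Vip cells and of excitatory cells, was at -0.29 (adjusted p = 0.182). In the list of the Lamp5, Reln and Sncg classes 1 of 12 fell, Kit, a receptor tyrosine kinase, at 67.9, 69.5 and 69.6 CPM against 51.2, 57.9 and 56.0 CPM (adjusted p = 0.0635). Nxph1, a neurexin ligand, was at -0.34 and was not called (adjusted p = 0.144).

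Of 8 perineuronal net genes, which build the matrix around Pvalb cells, 0 were called at a 10% FDR and 1, Tnr, had an unadjusted p under 0.05 (-0.35, adjusted p = 0.109). Ncan was at -0.16 (adjusted p = 0.270). The 6 called genes kept a negative fold change in all 14 alternatives each, but Grin3a held the 10% FDR in 9, Penk in 7, Kit in 5, Slc38a1 and Calb1 in 3 and Tac1 in 1. Leaving out 1 mouse, 0 of the 6 held it without mouse 10, 11, 2 or 4, 2 without mouse 17 and 5 without mouse 5. Calls over all genes dropped from 6040 to 0 without mouse 10 or 4, 1 without mouse 11 and 176 without mouse 2. They were 2476 without mouse 17 and rose to 7998 without mouse 5. None of the 6 held the 10% FDR with TMM over genes of at least 1 CPM, where Grin3a had an adjusted p of 0.142.

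**Figure D5:**
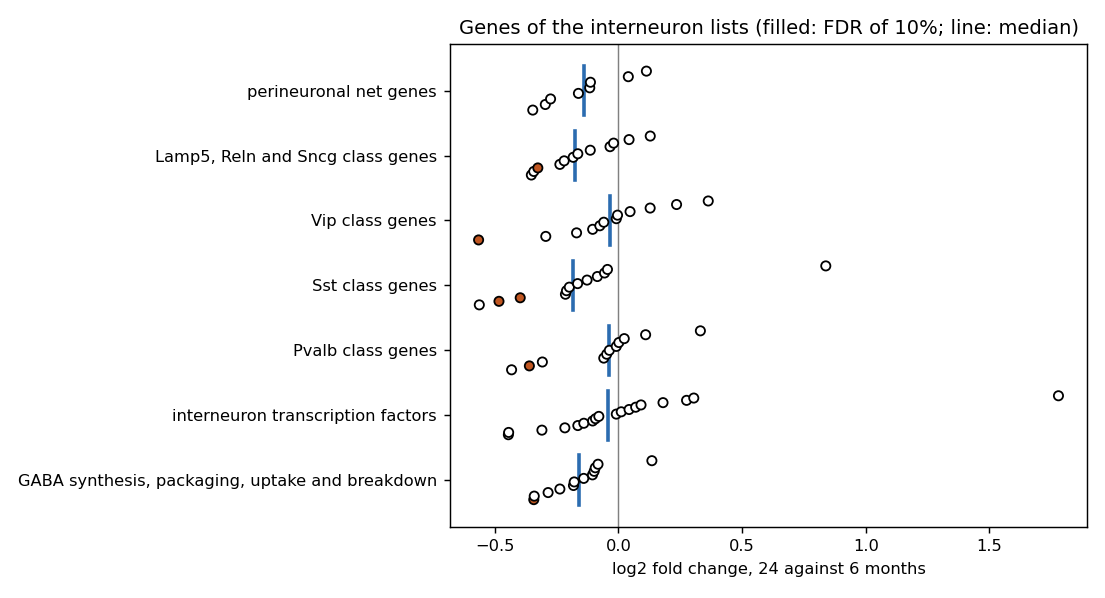
Log2 fold change (horizontal axis, 24 against 6 months) of each gene in the 7 interneuron lists, members included, with filled points for an FDR of 10% and blue lines for list medians. The filled points are Slc38a1, Tac1, Grin3a, Calb1, Penk and Kit, all below 0, and the list medians lie between -0.18 and -0.03.

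Markers of other neurons gave the setting for these values. The summed CPM of the 10 members was 1141 to 1185 at 6 months and 906 to 1110 at 24 months, a sum led by Gad1 and Lamp5. The sum over 13 excitatory genes was 3604 to 3952 CPM at 6 months and 2966 to 3452 CPM at 24 months, and 4 of the 13 fell at a 10% FDR, beside 17.3% of genes of at least 1 CPM. Among them was Camk2a, the abundant kinase subunit of excitatory synapses (-0.28, adjusted p = 0.0906), while Nrgn, a calmodulin-binding protein of the same cells, was not called (-0.21, adjusted p = 0.309). Of 10 genes of all neurons 5 fell, beside the same 17.3% (Syt1, Tubb3, Stmn2, Elavl4 and Syn1). Syn1, a synaptic vesicle protein, was at -0.50 (adjusted p = 0.0518), while Snap25, a fusion protein of nerve terminals, was not called (-0.31, adjusted p = 0.118). On the TMM scale the excitatory and all-neuron sums did not overlap between the ages, both lower at 24 months, as was the members' sum. Beside them, 32.5% of genes of at least 1 CPM were lower in the same way. The sums were not compared under other scalings, so a separation independent of the scaling was not shown. With Snap25 in place of Slc17a7 as the reference, the log2 ratios of Gad2, Slc32a1, Pvalb, Sst, Calb2 and Lamp5 turned from lower to higher at 24 months, by 0.07 to 0.18. The exact permutation p was 0.1 for Slc32a1, the smallest possible, and 0.3 to 0.8 for the others. The share of all genes that reach this p with Snap25 as the reference was not counted, so Slc32a1 cannot be set beside it.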

How the data were processed

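RNA-seq libraries of 75-base single-end reads were prepared by the authors from 10 ng of total RNA with the NEBNext single cell/low input kit, which does not mark strand. The submitters' processing notes name Trim Galore 0.6.4, STAR 2.7.3a, the GRCm38 genome and featureCounts (Subread 2.0.0). The deposited values used were raw counts per gene and sample, and TPM as the authors deposited them, scaled for transcript length and library. Counts were tested with edgeR 4.0.16 (quasi-likelihood, TMM, genes of 10 or more counts summed over 6 libraries, no covariates, Benjamini-Hochberg adjustment over all 32905 genes). Calls were made at a 1% FDR and also counted at 10%. TPM gave levels between genes. CPM is the count scaled to a common library size after TMM. Gene positions are from GENCODE on GRCm38.

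The rule for the 10 genes names symbols and uses no level, but the rule, the gene lists and the tests were chosen with earlier results of these data known. Named genes were all members and Slc17a7, the 2 non-member genes of smallest unadjusted p in each pathway list, the 2 of highest mean TPM in each cell type list whose sum did not overlap between ages, and the 5 genes nearest in profile to Gad1 and to Pvalb. Syt2, Drd2 and the other genes named in counts were named after their values were seen. A few genes of the marker lists are not reported here. Ratios within a library were tested by exact permutation over mice. The fits were tested on simulated data. Alternatives were the edgeR likelihood ratio and exact tests, DESeq2 1.42.0, other scalings, other filters and leaving out each mouse.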

Additional observations from a re-analysis of the deposited data

How the results depend on the processing

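No paired analysis was possible because the ages share no mouse numbers, so no replicate block could be fitted. No member was called at a 10% FDR in any setting that kept all 6 mice, and 1, Gad1, had an unadjusted p under 0.05 with no filter. Without 1 mouse, 0 to 2 members were called at a 10% FDR and none at 1%. Over all genes, 0 called at a 1% FDR became 1703 with the likelihood ratio test, 1122 with the exact test, 227 with DESeq2 and 42 with no filter, and 0 to 13 without 1 mouse. The 6040 called at 10% became 3048 with DESeq2, 1538 with filterByExpr, 66 with a mean of at least 1 CPM and 4014 with no filter, and 0 to 7998 without 1 mouse. The cause was not tested.

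Slc32a1, Calb2, Reln and Lamp5 changed the sign of an uncalled log2 fold change with the scaling or filter. With library totals Slc32a1 was at 0.0468, Calb2 at 0.0309, Reln at 0.175 and Lamp5 at 0.0274. With TMM over genes of at least 1 CPM Slc32a1 was at 0.011 and Reln at 0.138, and Reln was also at 0.0954 with filterByExpr and 0.0182 with no filter. All 7 list medians turned positive with library totals, to 0.0291 for GABA synthesis (-0.0071 over genes of at least 1 CPM), 0.0201 for the Lamp5, Reln and Sncg classes, 0.0533 for perineuronal net genes, 0.0095 for the Sst class, 0.145 for transcription factors, 0.148 for the Pvalb class and 0.16 for the Vip class. With the sum of 6 excitatory genes in place of Slc17a7, log2 ratio differences turned positive for Gad2 (0.0104), Slc32a1 (0.104), Pvalb (0.119), Sst (0.0405), Calb2 (0.0613) and Lamp5 (0.0915), and with Snap25 they were 0.0724, 0.166, 0.181, 0.103, 0.123 and 0.154. Gad1 stayed negative, and Vip, Lhx6 and Reln positive, with both references.

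Leaving out 1 mouse, log2 fold changes ranged from -0.52 to -0.15 for Gad1, -0.32 to -0.12 for Gad2, -0.39 to 0.34 for Pvalb, -0.071 to 0.17 for Vip, -0.0348 to 0.12 for Lhx6, -0.50 to 0.17 for Calb2 and -0.0583 to 0.0127 for Reln. Ratios to Slc17a7 ranged from -0.47 to -0.10 for Gad1, -0.19 to 0.0198 for Slc32a1, -0.42 to 0.37 for Pvalb, -0.0185 to 0.24 for Vip, -0.43 to 0.18 for Calb2 and -0.0281 to 0.0816 for Reln. Ratios to Gad1 ranged from -0.14 to 0.35 for Sst, -0.33 to 0.63 for Calb2, 0.0841 to 0.71 for Vip and 0.0515 to 0.47 for Pvalb. Counting error was below the observed spread of each member at each age, but for Reln it was 3.26% beside 4.25% at 6 months.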

Other observations

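Of 6 genes of B and T cells, 4 rose at a 10% FDR, beside 17.0% of all tested genes under 1 CPM that rose. Jchain, the joining chain of secreted antibodies, was at 0.324, 0.232 and 0.611 CPM in mice 10, 11 and 17 and at 1.70, 2.20 and 0.853 CPM in mice 2, 4 and 5 (adjusted p = 0.0518, quasi-likelihood test). It held the 10% FDR in 9 of 14 alternatives, with adjusted p from 0.000842 to 0.166, while the calls over all genes dropped to 0 or 1 without mouse 10, 11 or 4. The lists for Cajal-Retzius cells, which make Reln early in life, summed to 1.2 to 1.54 CPM at 6 months and 1.56 to 2.81 CPM at 24 months, with 0 of 4 genes called at a 10% FDR. Trp73 and Ebf3, transcription factors of these cells, had log2 fold changes of 0.39 (adjusted p = 0.470) and 0.67 (adjusted p = 0.185).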
